A study of Mus musculus with 12 samples.

Results

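The genes described here are 38 genes of the unfolded protein response and of degradation from the endoplasmic reticulum (ER). They were chosen by name from pathway knowledge, with earlier results of these data known. Among them are 10 chaperones and co-chaperones, 4 genes of the lectin chaperone cycle and 5 disulfide and prolyl isomerases. The others are 12 genes of ER-associated degradation and 7 stress sensors and their processing enzymes. All 38 were found by symbol among the 14219 genes of the deposited table, and all 38 passed the filter on low reads that left 12704 genes for testing. Transcripts were measured by RNA sequencing of bone marrow plasma cells of C57BL/6 mice with the genotype BLTcre.mcl1fl/+. Every group therefore came from mice with the Cre transgene, 1 floxed Mcl1 allele and tamoxifen treatment, and no group without them was analysed here. Tamoxifen turned on a human CD4 reporter, and cells with it (human CD4+, called marked) and without it (human CD4-, called unmarked) were sorted after 60 or 270 days. Whether marked cells had also lost the floxed Mcl1 allele was not tested. Marking and loss of that allele cannot be told apart in the comparisons below. The 4 groups, day 60 unmarked, day 60 marked, day 270 unmarked and day 270 marked, hold 3 libraries each. The sources used here do not give the promoter that drives Cre, the sort gates, or whether a specimen was 1 mouse or a pool.

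A plasma cell secretes antibody, a glycoprotein with many disulfide bonds, and makes it in an enlarged ER. When unfolded protein accumulates there, the membrane sensors ATF6, IRE1 (encoded by Ern1) and PERK (encoded by Eif2ak3) signal to the nucleus and to the ribosome, and chaperone and degradation genes are induced. IRE1 splices the transcript of Xbp1, a factor that plasma cells need to build their secretory apparatus. Glycoproteins that fail to fold have mannose trimmed by EDEM proteins, are bound by the lectins OS9 and ERLEC1, and are passed by SEL1L to the ubiquitin ligase encoded by Syvn1 and on to the cytosolic extraction enzyme encoded by Vcp.

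Promoters of many such genes carry the ER stress response element, a binding site for ATF6 and XBP1 beside the factor NF-Y. The 250 bases before the RefSeq transcription start (GRCm38.p6) were found for 33 of the 38 genes and searched on both strands for this element (CCAAT, any 9 bases, CCACG), its second form (ATTGG, any base, CCACG) and the core of the unfolded protein response element (TGACGTGG). No match of one motif overlapped a match of another. The first element stood in 8 of the 33 genes (24.2%) and in 0.113% of 32851 windows of all genes. The 33 genes have 38 windows, so the first share is of genes and the second of windows. The genes were chosen for this response, so their share is no independent test of the element. The second form stood in Herpud1 (0.0304% of windows), and the third motif in Vcp (0.563% of windows). These letters show a match and not a bound site. The following 6 windows hold the first or the second motif, in capitals, and are shown because they belong to the genes with a match whose windows overlap no annotated exon (sequences are 5′ to 3′ on the strand of the gene, and a motif on the opposite strand reads as its reverse complement).
Creld2, chr15:88819396-88819645, plus strand: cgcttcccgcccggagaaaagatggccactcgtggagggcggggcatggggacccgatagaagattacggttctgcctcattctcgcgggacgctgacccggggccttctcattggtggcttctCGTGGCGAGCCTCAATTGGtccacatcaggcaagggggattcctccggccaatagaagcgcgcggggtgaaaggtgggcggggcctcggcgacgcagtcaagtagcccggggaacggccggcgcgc
Derl3, chr10:75893148-75893397, plus strand: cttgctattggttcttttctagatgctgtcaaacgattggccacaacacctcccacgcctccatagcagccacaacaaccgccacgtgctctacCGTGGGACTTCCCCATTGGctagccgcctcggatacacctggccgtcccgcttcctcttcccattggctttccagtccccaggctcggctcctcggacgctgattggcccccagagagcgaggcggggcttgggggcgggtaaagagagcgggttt
Dnajc3, chr14:118937682-118937931, plus strand: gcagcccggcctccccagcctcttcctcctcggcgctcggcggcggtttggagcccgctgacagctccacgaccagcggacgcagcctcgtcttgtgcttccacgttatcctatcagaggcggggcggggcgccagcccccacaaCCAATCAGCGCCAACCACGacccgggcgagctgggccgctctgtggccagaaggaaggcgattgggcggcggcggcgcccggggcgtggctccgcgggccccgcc
Canx, chr11:50325674-50325923, minus strand: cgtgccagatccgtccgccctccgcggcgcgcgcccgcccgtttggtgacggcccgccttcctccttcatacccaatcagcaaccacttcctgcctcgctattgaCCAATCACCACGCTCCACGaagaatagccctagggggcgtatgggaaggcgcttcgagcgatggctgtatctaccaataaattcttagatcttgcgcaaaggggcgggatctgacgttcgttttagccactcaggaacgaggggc
Syvn1, chr19:6046326-6046575, plus strand: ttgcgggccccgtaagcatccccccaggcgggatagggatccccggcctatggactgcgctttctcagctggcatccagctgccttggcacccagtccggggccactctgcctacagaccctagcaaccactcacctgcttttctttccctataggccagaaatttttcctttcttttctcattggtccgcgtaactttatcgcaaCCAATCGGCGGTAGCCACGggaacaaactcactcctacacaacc
Herpud1, chr8:94386179-94386428, plus strand: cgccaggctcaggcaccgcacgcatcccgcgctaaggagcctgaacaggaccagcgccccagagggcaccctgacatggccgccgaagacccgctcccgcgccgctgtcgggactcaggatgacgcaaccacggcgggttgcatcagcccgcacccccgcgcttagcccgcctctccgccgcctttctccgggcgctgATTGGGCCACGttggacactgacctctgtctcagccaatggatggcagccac

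In Hspa5 the match ran from -65 to -47 relative to the start and read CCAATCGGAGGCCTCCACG. In Calr it ran from -162 to -144 on the opposite strand, and Hsp90b1 held a match on each strand. None of the 3 motifs stood in the windows of Edem1, Edem2 or Sel1l, degradation genes that did not pass between marked and unmarked cells. These windows are shown as examples without a match, chosen with the values of the genes known. A link between a motif and a difference was not tested.
Edem1, chr6:108828391-108828640, plus strand: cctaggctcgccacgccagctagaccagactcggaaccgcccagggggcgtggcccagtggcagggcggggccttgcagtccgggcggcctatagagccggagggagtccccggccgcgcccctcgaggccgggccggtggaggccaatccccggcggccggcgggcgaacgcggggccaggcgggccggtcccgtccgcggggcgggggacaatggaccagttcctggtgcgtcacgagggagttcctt
Edem2, chr2:155729476-155729725, minus strand: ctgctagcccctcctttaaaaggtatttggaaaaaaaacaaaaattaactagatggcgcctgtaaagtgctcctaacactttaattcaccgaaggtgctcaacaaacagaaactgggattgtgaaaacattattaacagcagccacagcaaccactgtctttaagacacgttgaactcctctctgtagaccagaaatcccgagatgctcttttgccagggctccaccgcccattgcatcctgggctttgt
Sel1l, chr12:91849158-91849407, minus strand: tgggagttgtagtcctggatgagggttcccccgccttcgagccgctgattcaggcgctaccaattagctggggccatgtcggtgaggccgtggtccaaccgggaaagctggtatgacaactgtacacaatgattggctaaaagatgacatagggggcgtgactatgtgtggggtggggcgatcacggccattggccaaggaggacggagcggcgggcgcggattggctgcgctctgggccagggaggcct

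Totals in the table ran from 7449468 to 15943547 reads per library, and the 38 genes took 2.40% to 3.61% of them. The table includes Jchain (the joining chain of secreted IgM and IgA), at 7.90% to 31.3% of reads, and no immunoglobulin chain gene, so these totals are not the whole depth. Features that resemble ribosomal RNA took 30.0% of reads in marked library 2 of day 270, 11.99% in marked library 2 of day 60 and 0.237% to 3.18% in the other 10 libraries. All 8 plasma cell markers were present in every group. Mcl1, of which 1 allele is floxed, ranged from 483 to 590 CPM (reads scaled to a common total) in unmarked and from 342 to 513 CPM in marked libraries, a log2 difference of -0.35 ± 0.12 (SE) over both days that did not pass (adjusted p 0.156, limma). Summed erythroid markers (7 of 9 in the table) ran from 28.5 to 166 CPM in unmarked and from 107 to 788 CPM in marked libraries, and summed cell cycle genes (6 of 6) from 84.2 to 134 and from 12.8 to 51.9 CPM. Summed B cell markers (8 of 8) ran from 297 to 421 CPM in unmarked and from 244 to 381 in marked libraries, macrophage markers (10 of 10) from 105 to 360 and from 147 to 662, and neutrophil markers (10 of 10) from 22.8 to 291 and from 1.78 to 811. None of the markers in the table was at 0 in all libraries, and 2 of 6 T and NK cell markers were listed. The part of these cells in the differences below was not tested.

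Per kb of exon, 36 of the 38 genes lay above the median gene of the table and 27 in its top 10%. Calr, which encodes the ER lectin calreticulin, was highest, with a mean of 945 CPM per kb over the 12 libraries. Herpud1, a membrane adaptor of the degradation complex, followed with 791 CPM per kb, Creld2, a stress-induced ER protein, with 686, P4hb, the classical protein disulfide isomerase, with 667, and Hsp90b1, the ER form of HSP90, with 641. At the other end were Mbtps2, the site-2 protease that releases ATF6, with 2.66 CPM per kb, and Fkbp14, a prolyl isomerase, with 0.786. Among the sensors, Atf6b had 59.8 CPM per kb, Ern1 28.7, Atf6 27.5 and Eif2ak3 19.1. The chaperones and co-chaperones lay above all of these, except Dnajc10, which at 32.7 CPM per kb was below Atf6b, and the nearest was Hyou1 with 74.6.

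**Figure D1:**
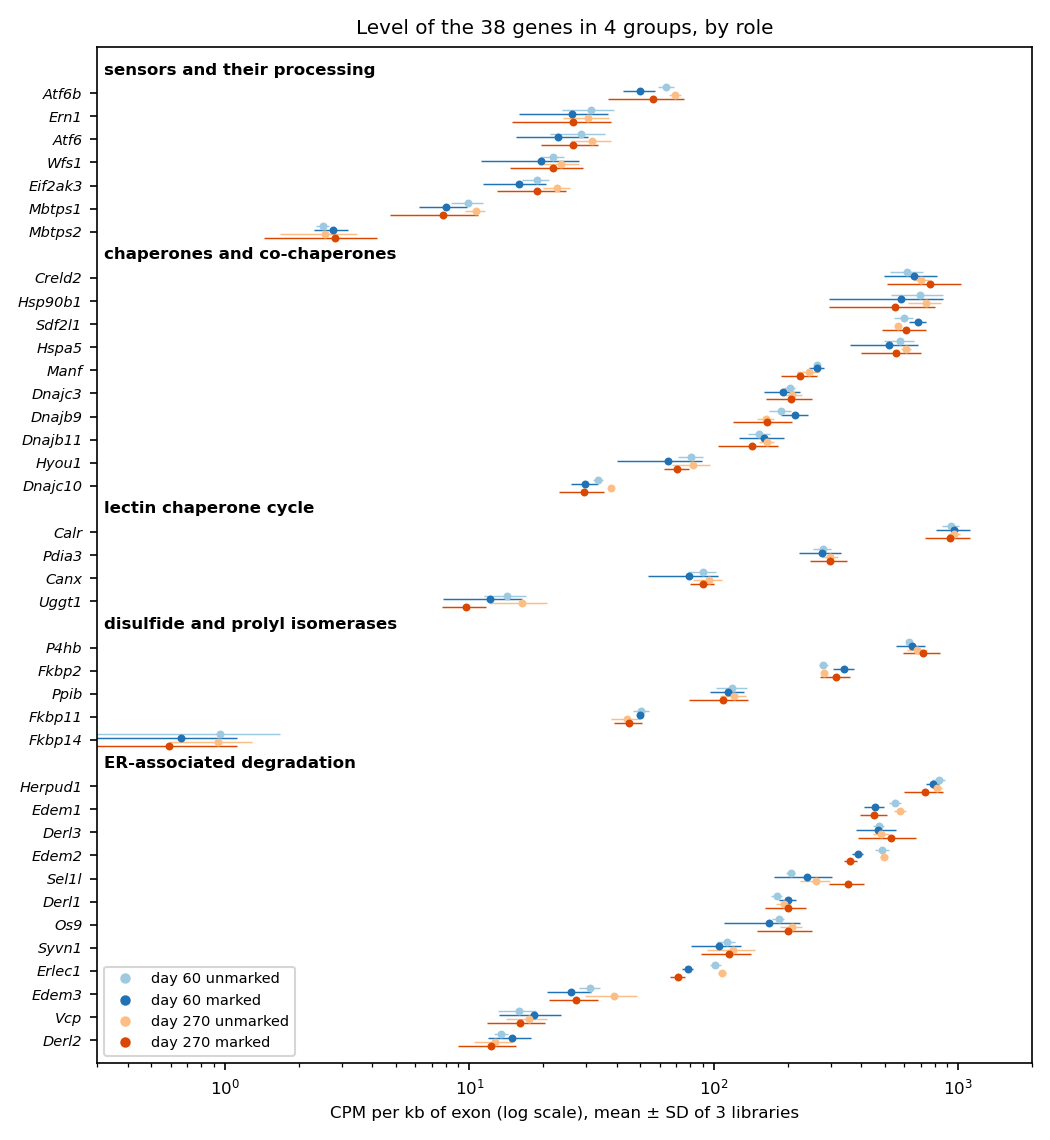
Level of the 38 genes in CPM per kb of exon (log scale), grouped by role, as mean ± SD of 3 libraries in each of the 4 groups. Calr (945 CPM per kb over all libraries) is highest and Fkbp14 (0.786) lowest, and the sensors lie at 59.8 CPM per kb (Atf6b) or below.

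Between marked and unmarked cells, 1 of the 38 transcripts passed the test. Erlec1, whose product XTP3-B recognises trimmed glycoproteins, fell in marked cells averaged over both days, to 0.713 of its level in unmarked cells (95% interval 0.618 to 0.823). None of the other genes of glycoprotein recognition passed: Os9, the other lectin, had a fold of 0.909, and of the trimming genes Edem2 had 0.761, Edem3 0.762 and Edem1 0.802. Sel1l, which scaffolds the ubiquitin ligase, had a fold of 1.24 in the other direction. The chaperones other than Dnajc10, calnexin, calreticulin, Pdia3 and P4hb had 95% intervals that included no difference. In sorted bulk samples, fewer cells with a transcript and less of it per cell cannot be told apart.

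A call needed an adjusted p (Benjamini-Hochberg, over all genes) under 0.05 in limma on log2(CPM + 0.5). On this scale the scaling by total reads moved the median of all genes by -0.12 in marked minus unmarked cells, relative to TMM scaling. Of all genes tested, 0.338% were called higher and 1.5% lower in marked cells over both days, and 0 and 1 of the 38 is near this background. The median log2 difference was -0.13 over the 38 genes and -0.18 over all genes, with 12 positive and 26 negative among the 38. Of all 12704 genes 3765 were positive and 8939 negative. With TMM scaling 19 of the 38 were positive and 19 negative. The median of the 38 rested on single libraries: it was -0.03 without day 60 marked library 1, -0.03 without day 270 marked library 2, -0.20 without day 270 marked library 3, and 0.04 without the first 2 of these together.

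The difference for Erlec1 (ENSMUSG00000020311, GRCm38 chr11:30930774-30954335, minus strand) was seen in each library. Its level was 345, 336 and 311 CPM in the day 60 unmarked libraries and 249, 246 and 269 in the day 60 marked ones. At day 270 it was 337, 356 and 363 CPM in unmarked and 245, 214 and 237 in marked libraries. Every marked library was below every unmarked one at both days. The log2 difference was -0.49 ± 0.098 (SE, adjusted p 0.0135, limma), and it was negative in 6 of 6 specimens. It was -0.37 at day 60 (adjusted p 0.572) and -0.60 at day 270 (adjusted p 0.0629), and the difference between the days was -0.23 ± 0.20 (adjusted p 0.9999). Over both days it was -0.36 with TMM scaling (adjusted p 0.0444). It missed the threshold with edgeR (-0.36, adjusted p 0.0666) and without day 60 unmarked library 1 (-0.47, adjusted p 0.0532). In the 26 alternatives tried it lay between -0.51 and -0.35.

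Edem1, Edem2 and Edem3 encode the proteins that trim mannose from misfolded glycoproteins and so mark them for degradation. Edem2 (ENSMUSG00000038312, chr2:155701677-155729475, minus strand), which starts the trimming, was 1803, 1661 and 1585 CPM in day 60 unmarked and 1309, 1296 and 1421 in marked libraries. At day 270 it was 1682, 1689.8 and 1803 CPM in unmarked and 1316, 1167 and 1271 in marked libraries. The groups did not overlap at either day, and the averaged log2 difference was -0.39 ± 0.10 (SE, adjusted p 0.0538, limma), just outside the threshold. Edem2 was called without day 270 marked library 2, the one with the most ribosomal reads, without day 270 marked library 1, and with a filter at a mean of 5 CPM. It was not called with TMM scaling, with edgeR or with the specimen as a block.

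Edem1 (ENSMUSG00000030104, chr6:108828641-108859356, plus strand) was the most abundant of the 3 per kb. It measured 3324, 3720.4 and 3603 CPM in day 60 unmarked and 2885, 2677 and 3231 in marked libraries, and 3920.1, 3519.8 and 3748 in day 270 unmarked and 3199, 2498 and 3083 in marked libraries. Here too the lowest unmarked library was above the highest marked one at both days. The averaged log2 difference was -0.32 ± 0.12 (SE, adjusted p 0.198, limma), and -0.19 with TMM scaling. Edem3 had 179, 201 and 218 CPM in day 60 unmarked, 140.0, 154 and 205 in marked, 268, 296 and 183 in day 270 unmarked, and 183, 131 and 208 in day 270 marked libraries. Its groups overlapped at both days (averaged -0.39 ± 0.15, adjusted p 0.204).

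Erlec1, Edem1 and Edem2 were the 3 of 38 genes with all 6 marked libraries below all 6 unmarked ones, where 1.85% of all genes tested had this pattern. None of the 38 had the reverse pattern (0.276% of genes). Within specimens, Dnajc10, Edem1, Edem2, Erlec1 and Uggt1 were lower in marked cells in 6 of 6 pairs, 5 of 38 genes, against 7.64% of all genes. Within day 60, 4 of the 38 (Atf6b, Edem1, Edem2, Erlec1) had every marked library below every unmarked one (11.3% of all genes), and within day 270, 5 (Dnajc10, Edem1, Edem2, Erlec1, Uggt1; 12% of all genes). These patterns come from the same values as the tests.

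**Figure D2:**
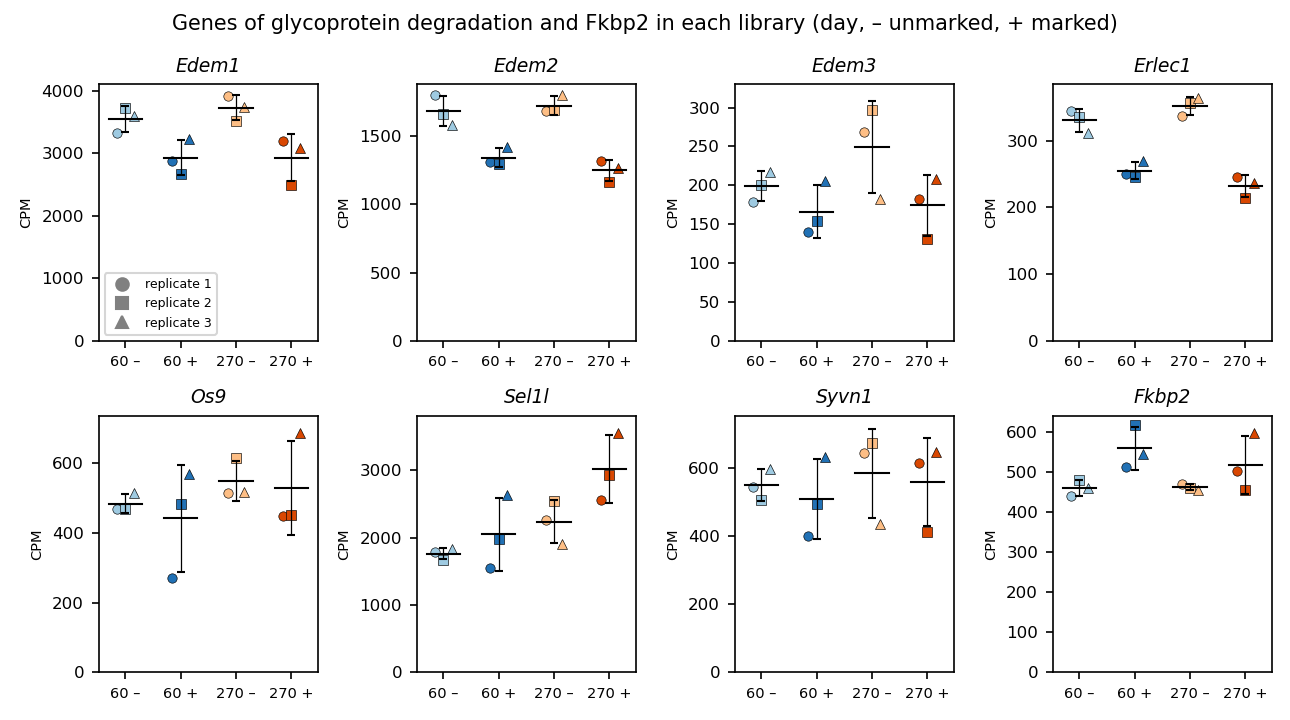
CPM of 8 genes in each library (points, shaped by replicate), with the mean and SD of each group as lines, by day and by marking (– unmarked, + marked). The marked groups of Edem1, Edem2 and Erlec1 lie below both unmarked groups without overlap, whereas Os9, Syvn1 and Edem3 overlap, and Sel1l has its highest mean in the day 270 marked group.

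Os9 encodes the other lectin that delivers trimmed glycoproteins to SEL1L. It was 468, 467 and 515 CPM in day 60 unmarked and 271, 482 and 569 in marked libraries. At day 270 it was 514, 614 and 516 CPM in unmarked and 449, 451 and 685 in marked libraries, and the averaged log2 difference was -0.14 ± 0.16 (adjusted p 0.701). The marked libraries spread over both sides of the unmarked ones.

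Sel1l (ENSMUSG00000020964, chr12:91806043-91849157, minus strand) was 1788, 1673 and 1826 CPM in day 60 unmarked and 1546, 1976 and 2629.7 in marked libraries. At day 270 it was 2269, 2546 and 1904 CPM in unmarked and 2568, 2935 and 3561 in marked libraries. The day 270 marked group had the highest mean, although its lowest library was below day 60 marked library 3. Its libraries did not overlap with the unmarked ones of that day, which made Sel1l the 1 gene of 38 with this pattern (3.28% of all genes). Marked minus unmarked, the log2 difference was 0.31 ± 0.14 over both days (adjusted p 0.280, limma). It was positive in 5 of 6 specimens. With TMM scaling it was 0.43 (adjusted p 0.0449), and edgeR, DESeq2 and limma-voom also called it.

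Between the ends of the design, day 270 marked minus day 60 unmarked, marking and day differ together. The Sel1l difference there was 0.77 ± 0.20 (SE, adjusted p 0.0621, limma), and it passed with TMM scaling (adjusted p 0.0108) and without day 60 marked library 1, day 270 marked library 1 or day 270 marked library 2. The authors' deposited table of this comparison lists 265 genes, 1.86% of the larger table, and 3 of the 38 are among them. In the authors' deposited table Sel1l has a log2 fold change of 0.74 (FDR 0.00211), Edem2 of -0.43 (FDR 0.0371) and Erlec1 of -0.51 (FDR 0.0450). By the test used here 0 of the 38 passed, with 0.795% of all genes called higher and 0.748% lower. An unadjusted p under 0.05 was found for 4 of the 38 and for 1826 of all 12704 genes. edgeR called 1, limma-voom 1 and DESeq2 3 of the 38. The shares of all genes called by these tools are not given here.

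Ratios of reads of 2 genes within a library do not depend on the scaling between libraries. Reads of Sel1l per read of Erlec1 were 5.19, 4.99 and 5.86 in day 60 unmarked and 6.20, 8.03 and 9.76 in marked libraries. At day 270 they were 6.74, 7.15 and 5.24 in unmarked and 10.5, 13.7 and 15.0 in marked libraries. The marked ratio was above the unmarked one in every library of the same day, and the means were 5.34 ± 0.46, 8.00 ± 1.78, 6.38 ± 1.01 and 13.1 ± 2.35 (SD, n = 3) in the 4 groups. Edem1 to Edem2, by contrast, had means of 2.12 ± 0.24, 2.18 ± 0.11, 2.16 ± 0.14 and 2.33 ± 0.17 (SD, n = 3), with all 4 groups overlapping. Both pairs were picked after their values were seen, and no test was made.

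**Figure D3:**
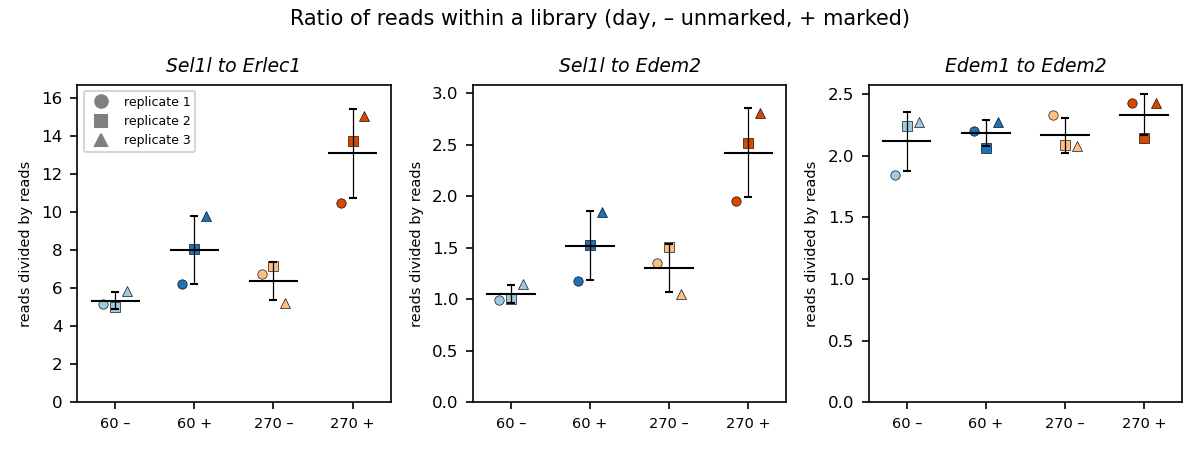
Reads of one gene divided by reads of another in the same library (points, shaped by replicate; lines show mean and SD of 3 libraries), by day and marking (– unmarked, + marked). Sel1l to Erlec1 has means of 5.34 and 6.38 in the unmarked and 8.00 and 13.1 in the marked groups, whereas Edem1 to Edem2 stays between 1.84 and 2.43.

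The rest of the degradation machinery had smaller differences. Syvn1, the ubiquitin ligase, had group means of 549 ± 46.4, 508 ± 117, 583 ± 129.8 and 558 ± 128 CPM (SD, n = 3; day 60 unmarked and marked, day 270 unmarked and marked). Of the derlins, which form the channel with the ligase, Derl3 was 888, 972 and 962 CPM in day 60 unmarked, 744, 984 and 1082 in marked, 921, 923 and 1043 in day 270 unmarked, and 988, 808 and 1358 in day 270 marked libraries. Derl2 was 100.1, 113 and 113 CPM in day 60 unmarked, 145, 97.3 and 117 in marked, 122, 85.4 and 99.7 in day 270 unmarked, and 129, 77.1 and 90.6 in day 270 marked libraries. Derl1 ran from 569 to 679 CPM in unmarked and from 531 to 781 in marked libraries. Marked and unmarked libraries of these genes overlapped. Herpud1 was 1838, 1907 and 2068 CPM in day 60 unmarked, 1884, 1696 and 1916 in marked, 2021, 1855 and 1871 in day 270 unmarked, and 1842, 1346 and 1912 in day 270 marked libraries, the lowest value being in marked library 2. Vcp ran from 55.7 to 105 CPM. Use of strand in counting is not given in the sources used here, and reads in exon bases shared with another gene could come from either: 352 of 4851 such bases in Vcp, 485 of 6026 in Eif2ak3, 825 of 3305 in Ppib and, with a gene on the same strand, 2867 of 10105 in Mbtps2. Shorter stretches are shared in Derl2, Fkbp14, Manf, Syvn1, Pdia3 and Dnajb9.

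Of the 10 chaperones and co-chaperones 0 passed between marked and unmarked cells. Hspa5, which encodes BiP, the central HSP70 of the ER, had 2448 ± 348 CPM in day 60 unmarked, 2201 ± 682 in marked, 2584 ± 132 in day 270 unmarked and 2342 ± 644 in day 270 marked libraries (SD, n = 3). The averaged fold was 0.880, with a 95% interval of 0.695 to 1.11. Hsp90b1 was 2102, 2883 and 3442 CPM in day 60 unmarked, 1013, 3067 and 2961 in marked, 2591, 3461 and 2839.8 in day 270 unmarked, and 1442, 1825 and 3377 in day 270 marked libraries. Its coefficient of variation over the 12 libraries, 31.4%, was the highest after that of Fkbp14 (61.9%), and replicate 1 was the lowest library in every group. The replicate 1 libraries carry the library numbers 5 to 8 and the others 13 to 27, and Hsp90b1 differed between these sets by -0.80 ± 0.19 on the log2 scale (adjusted p 0.502 over all genes, limma). Of the 38 genes 0 were called between the sets, where 0.0157% of all genes were called in each direction. Hsp90b1 also overlaps 3 other annotated genes, by at most 415 of its 4032 exon bases each.

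Hyou1, the ER HSP110 that exchanges nucleotide on BiP, was 553, 537 and 662 CPM in day 60 unmarked, 288, 474 and 643 in marked, 622, 680.2 and 474 in day 270 unmarked, and 470.1, 484 and 583 in day 270 marked libraries. Dnajb9, a J protein that keeps IRE1 inactive with BiP, was 424, 522 and 489 CPM in day 60 unmarked, 577, 470.0 and 601 in marked, 438, 377 and 429 in day 270 unmarked, and 541, 314 and 406 in day 270 marked libraries. Day 60 marked library 1 was the lowest of the 12 libraries for Hyou1, and day 270 marked library 2 the lowest for Dnajb9. Sdf2l1, which acts with J proteins and BiP, was 595, 711 and 681 CPM in day 60 unmarked, 689, 781 and 800.3 in marked, 617, 629 and 639 in day 270 unmarked, and 699, 533 and 803 in day 270 marked libraries. Sdf2l1 was higher in marked cells in 5 of 6 specimens, with an averaged log2 difference of 0.14 ± 0.11 (adjusted p 0.561). Creld2 was 694, 921 and 922 CPM in day 60 unmarked, 647, 994 and 1047 in marked, 907, 945 and 1039 in day 270 unmarked, and 776, 916 and 1439 in day 270 marked libraries. Each of these genes overlapped between marked and unmarked cells at both days. Dnajc10, a disulfide reductase that prepares substrates for degradation, ran from 162 to 193 CPM in unmarked and from 114 to 174 in marked libraries and was lower in marked cells of 6 of 6 specimens (averaged -0.29 ± 0.12, adjusted p 0.244). Manf, Dnajc3 and Dnajb11 had averaged log2 differences of -0.06, -0.07 and -0.10.

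In the lectin chaperone cycle, calreticulin (Calr) was 2460.5, 2683 and 2887 CPM in day 60 unmarked, 2337, 2745 and 3239.5 in marked, 2662, 2706 and 2939 in day 270 unmarked, and 2597, 2144 and 3257 in day 270 marked libraries. Its averaged fold was 0.989, with a 95% interval of 0.817 to 1.20. Uggt1, the folding sensor that returns glycoproteins to calnexin and calreticulin, was 146, 186 and 218 CPM in day 60 unmarked, 92.1, 181 and 193 in marked, 192, 274 and 166 in day 270 unmarked, and 128, 97.3 and 148 in day 270 marked libraries. At day 270 its groups did not overlap, and it was lower in marked cells in all 6 specimens (averaged -0.52 ± 0.19, adjusted p 0.177). Canx had an averaged log2 difference of -0.16 ± 0.15 and Pdia3, the oxidoreductase that works with both lectins, of -0.02 ± 0.12.

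Among the isomerases, P4hb was 1811, 1799.5 and 1792 CPM in day 60 unmarked, 1699.8, 1689 and 2137 in marked, 1758, 1949.6 and 2116 in day 270 unmarked, and 1961, 1752 and 2442 in day 270 marked libraries. Fkbp2, an ER prolyl isomerase, was 439.5, 481 and 459.8 CPM in day 60 unmarked and 514, 618 and 545 in marked libraries. At day 270 it was 471, 461 and 455 CPM in unmarked and 503, 454 and 596 in marked libraries. Fkbp2 was the 1 gene of 38 with every marked library above every unmarked one at day 60, a pattern of 4.46% of all genes, and at day 270 marked library 2 lay just below the unmarked ones. Its averaged log2 difference was 0.22 ± 0.10 (adjusted p 0.2997, limma). It was called by limma-voom and DESeq2 and not by edgeR. Fkbp11, which is abundant in secretory cells, was 133, 148 and 129 CPM in day 60 unmarked, 136, 134 and 135 in marked, 106, 114 and 137 in day 270 unmarked, and 122, 105 and 137 in day 270 marked libraries. Ppib ran from 327 to 437 CPM in unmarked and from 263 to 459 in marked libraries, and Fkbp14, with 0 to 6.84 CPM, was too low to compare.

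The 3 stress sensors did not pass in any comparison. Ern1 was 205, 242 and 324 CPM in day 60 unmarked, 129, 218 and 299 in marked, 244, 306 and 199.8 in day 270 unmarked, and 294, 112 and 245 in day 270 marked libraries. Atf6 was 222, 228 and 341 CPM in day 60 unmarked, 166, 178 and 293 in marked, 329, 322 and 231 in day 270 unmarked, and 237, 186 and 313 in day 270 marked libraries. Eif2ak3 was 121, 97.0 and 123 CPM in day 60 unmarked, 71.9, 89.9 and 127 in marked, 154, 141 and 119 in day 270 unmarked, and 113, 78.3 and 149.97 in day 270 marked libraries. Marked and unmarked libraries overlapped for each sensor at both days, and the lowest value in a day's marked libraries was library 1 at day 60 and library 2 at day 270. Mbtps1, the site-1 protease that cuts ATF6, was 98.3, 92.1 and 122 CPM in day 60 unmarked, 65.7, 84.2 and 103 in marked, 114, 121 and 100.5 in day 270 unmarked, and 84.2, 48.9 and 113 in day 270 marked libraries (averaged -0.42 ± 0.18, adjusted p 0.252). Of the 7 genes of this group 6 had a negative averaged difference, with a median of -0.30 against -0.18 over all genes, and the exception was Mbtps2. Of all 12704 genes 8939 were negative in this comparison.

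**Figure D4:**
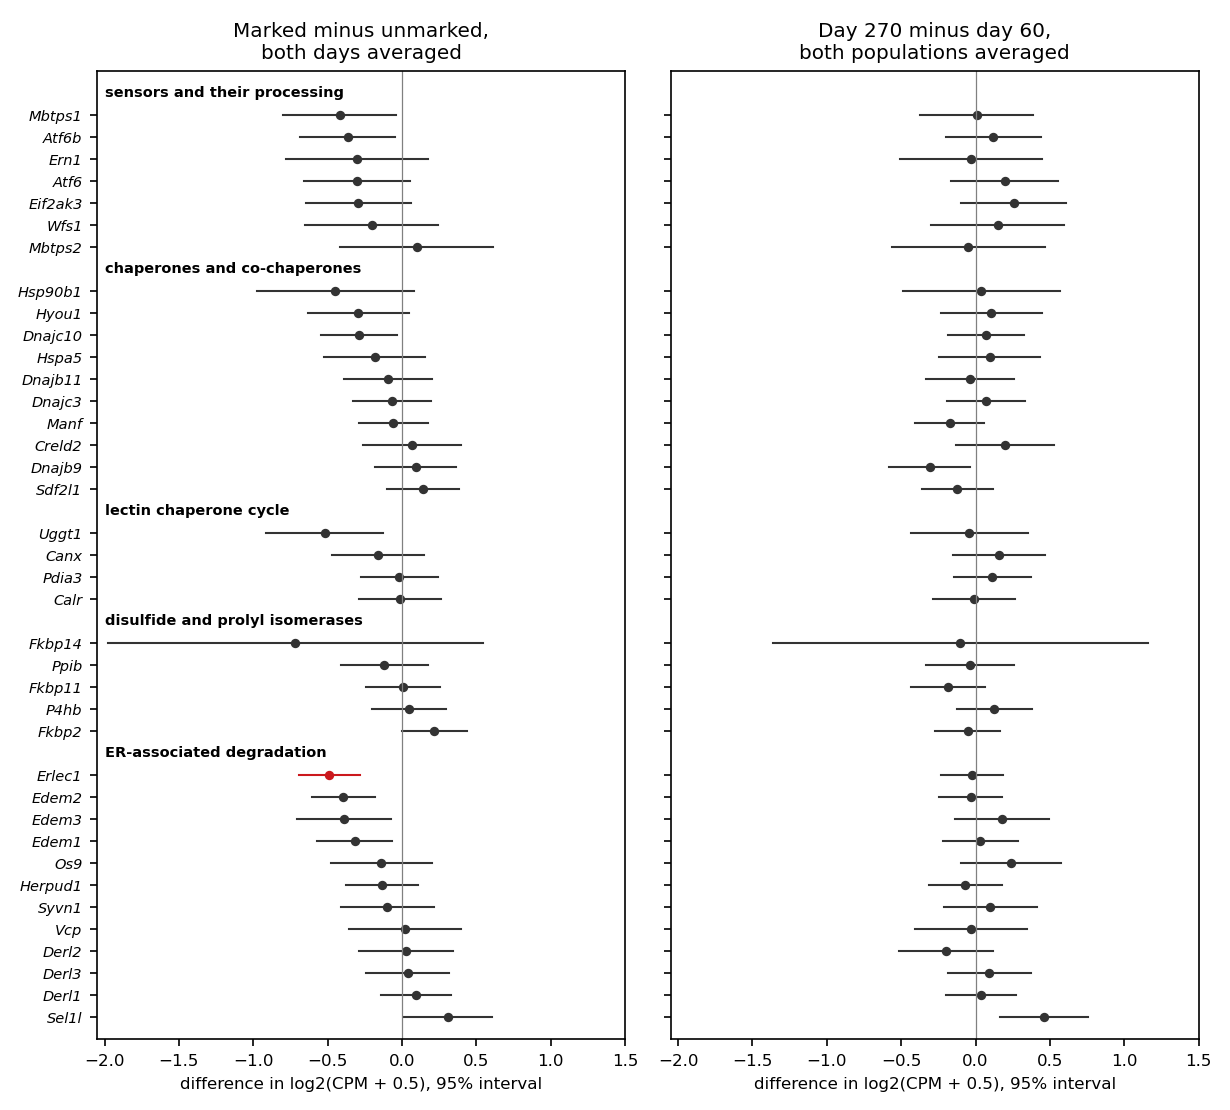
Difference in log2(CPM + 0.5) of each of the 38 genes with its 95% interval from limma, for marked minus unmarked cells (left) and day 270 minus day 60 (right), each averaged over the other factor. Erlec1 (red, left, -0.49) is the 1 gene that passed, and 37 of 38 intervals in each panel lie within a 2-fold change, Fkbp14 being the exception.

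Within day 60, 0 of the 38 genes passed by limma, edgeR, DESeq2 and limma-voom, with 2 at an unadjusted p under 0.05 (limma). Such a p was found for 819 of all 12704 genes. By limma 0.0394% of all genes were called higher there and 0.15% lower. Within day 270, 0 passed by limma, edgeR and limma-voom and 2 by DESeq2, Erlec1 and Sel1l. By limma 7 of the 38 and 1773 of all 12704 genes had an unadjusted p under 0.05 there. The background of calls at day 270 was 0.0472% higher and 0.433% lower by limma. The share of all genes called by DESeq2 is not given here, so its 2 calls have no background beside them. The 95% intervals of 36 genes at day 60 and of 34 at day 270 lay within a 2-fold change. In the authors' deposited table for day 60, 28 genes (0.197%) have an FDR under 0.05, and 0 of the 38 are among them. The test of a marking difference that changes with the day called 0 of the 38 by all 4 tools. By limma 0 of the 38 and 387 of all 12704 genes had an unadjusted p under 0.05, and 0% of all genes were called. The 95% intervals of 32 genes for that change lay within 2-fold.

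The comparison of the days asks whether these transcripts differ between cells sorted early and late after tamoxifen. The sources used here do not give the age of the mice, and time since tamoxifen and age cannot be told apart. In unmarked cells 0 of 38 passed by the 4 tools, and 0% of all genes were called by limma. An unadjusted p under 0.05 (limma) was found for 0 of the 38 and for 378 of all 12704 genes. In marked cells 0 passed by limma, edgeR and limma-voom and 1, Sel1l, by DESeq2. An unadjusted p under 0.05 (limma) was found there for 2 of the 38 and for 1225 of all 12704 genes. By limma 0.0236% of genes were called higher and 0.00787% lower. With both populations averaged 0 passed by limma, edgeR and limma-voom and 2 by DESeq2, Sel1l and Dnajb9. An unadjusted p under 0.05 (limma) was found there for 2 of the 38 and for 1084 of all 12704 genes. By limma 0.181% of genes were called higher and 0.00787% lower. The shares called by DESeq2 are not given here, so its calls between days have no background beside them. Sel1l had the highest averaged value, 0.46 ± 0.14 (adjusted p 0.256), and Dnajb9 the lowest, -0.31 ± 0.13 (adjusted p 0.518). The 38 genes had a median of 0.04 against 0.07 over all genes, and -0.08 with TMM scaling; it was 0.14 without day 270 marked library 2 and -0.02 without day 270 marked library 3. Between the days, every day 270 library was above every day 60 one for Dnajc10 and Sel1l in unmarked cells (2 of 38, where 10.4% of all genes were higher and 2.39% lower in this way). In marked cells this held for 0 of 38 upward (6.46% of genes) and for Erlec1 downward (4.04%), and over both populations for 0 of 38 (0.512% higher, 0.0551% lower). Marked cells of the 2 days came from different specimens, as did unmarked cells.

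Single libraries accounted for much of the spread. In day 270 marked library 2, 36 of the 38 genes were below their own mean over the 12 libraries, with a median deviation of -0.40 on the log2 scale against -0.32 over all genes, and of -0.13 once CPM were rescaled to reads outside Jchain and the features resembling ribosomal RNA. In day 60 marked library 1, which had the highest share of Jchain (31.3%), 27 of the 38 were below their mean, with a median of -0.36 against -0.21 over all genes and -0.22 rescaled. In day 270 marked library 3 the median was 0.26, and 8 genes were below their mean. Sel1l stood apart in library 2 of day 270: it was 0.41 above its mean there while most others were below theirs. Without day 60 marked library 1 and day 270 marked library 2 together, Erlec1 and Edem2 were both called lower in marked cells over both days, and none of the 38 was called higher.

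**Figure D5:**
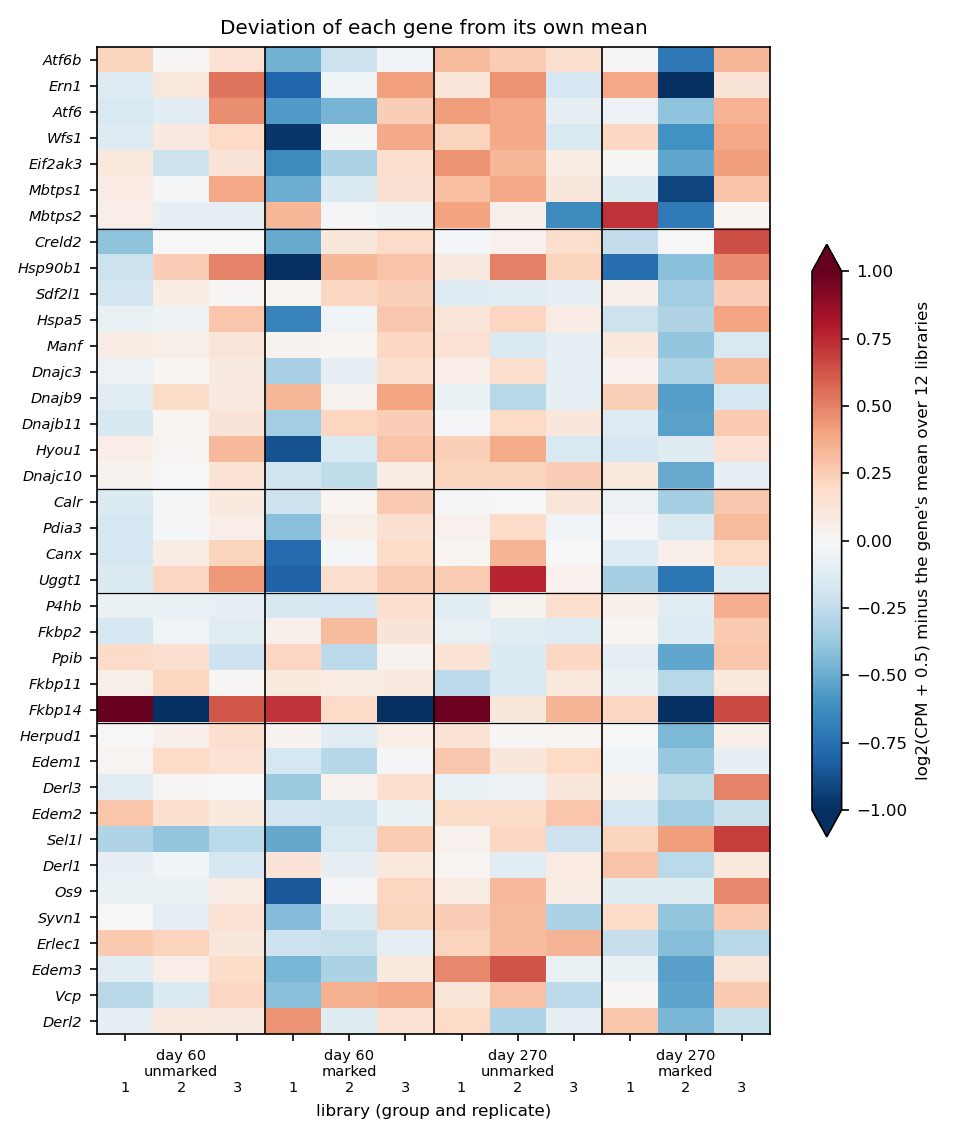
Deviation of each gene from its own mean over the 12 libraries, in log2(CPM + 0.5), with genes in rows by role and libraries in columns by group and replicate (red above, blue below, colours end at 1). The columns of day 60 marked library 1 and day 270 marked library 2 are mostly blue, and the rows of Erlec1 and Edem2 are blue in every marked and red in every unmarked library.

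Genes of the same pathway outside the 38 were read from 5 lists. Xbp1 was 5023 ± 588 CPM in day 60 unmarked, 4520.1 ± 515 in marked, 5982 ± 53.0 in day 270 unmarked and 5566 ± 722 in day 270 marked libraries (SD, n = 3), and no comparison passed. These values are for the whole gene and do not separate its spliced form. In the PERK arm (11 genes tested) 0 passed in any comparison. The factor Atf4 was 417 ± 8.04, 341 ± 13.7, 430.4 ± 29.3 and 348 ± 48.1 CPM in the same order (averaged marking difference -0.30 ± 0.10, adjusted p 0.161, limma). Every marked library of Atf4 (293 to 378 CPM) lay below every unmarked one (405 to 463 CPM), a pattern of 1.85% of all genes. Ddit3, which encodes CHOP, was 17.0 ± 4.56, 10.5 ± 2.40, 16.2 ± 3.89 and 18.8 ± 6.02 CPM. Of 14 transcription factors and regulators, 6 exchange factors and prolyl isomerases and 30 further degradation genes, 0 passed. Of 15 further oxidoreductases 1 fell in marked cells over both days, where 1.5% of all genes were called lower. Txndc11, a thioredoxin-like ER protein linked to EDEM proteins, went from 951 ± 86.6 to 648 ± 57.5 CPM at day 60 and from 991 ± 125 to 719.8 ± 99.2 CPM at day 270 (-0.51 ± 0.11, adjusted p 0.0242, limma). Its marked libraries (at most 820 CPM) also lay below all unmarked ones (at least 850 CPM). The 5 lists were not counted for this pattern. Another, Pdia5, was 8.91 ± 1.88 CPM in day 60 marked and 9.43 ± 3.59 CPM in day 270 unmarked libraries. It rose between day 60 unmarked cells (2.30 ± 1.36 CPM) and day 270 marked cells (17.4 ± 3.95 CPM, log2 difference 2.79, adjusted p 0.00710, limma). In that comparison 0.795% of all genes were called higher.

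The genes with an ER stress response element or its second form in the promoter window, 9 in number, had a median averaged marking difference of -0.10, between -0.45 and 0.07. The 24 genes with a window and neither element had a median of -0.13, between -0.72 and 0.31. Between days, averaged over both populations, the medians were 0.09 and -0.03. No member of either set passed in these comparisons. The 1 gene that passed, Erlec1, had no window in the table.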

How the data were processed

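Of 12 libraries, 3 for each of 4 groups, the authors deposited CPM for 14219 genes in a table of day 60 marked against unmarked cells, with their own log2 fold changes, p-values and FDR. A second deposited table gives the same for 265 genes of day 270 marked against day 60 unmarked cells. A deposited matrix of raw counts for 230 genes set the range in which each library total was sought. The recovered reads matched it for 100% of these genes in every library. Per the submitters' processing notes the build was GRCm38 and limma was used; no aligner, counter or annotation is named in the sources used here. Multiplying CPM by 1 total per library gave whole reads within 0.05 for 100% of 131943 values under 1000 reads, and these recovered counts entered the filter and the count tests. Intervals cover the spread between libraries, and the labels do not say whether specimens were separate mice.

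Tests used limma 3.58.1 (trended prior, R 4.3.3) on log2(CPM + 0.5) over all 12 libraries with 1 coefficient per group and 8 residual degrees of freedom. filterByExpr (minimum count 10) kept 12704 genes and removed 1515. Calls needed a Benjamini-Hochberg adjusted p under 0.05. On data simulated for the day 60 marking comparison over 12704 genes, 37% of 2-fold and 79% of 4-fold changes were recovered with 5 false calls. Alternatives were TMM scaling, other pseudocounts and filters, edgeR 4.0.16, DESeq2 1.42.0, limma-voom, a specimen block and libraries left out; 3 more were chosen after seeing the data (scaling without Jchain and ribosomal features, library number as a covariate, and leaving out 2 marked libraries).

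The genes and lists were chosen with earlier results of these data known. Values in each library are given for genes called, for the 3 largest differences each way among genes with a mean of at least 5 CPM (which leaves out Fkbp14), for the 5 highest per kb, and for the 3 sensors; Edem1, Edem2, Edem3 and the ratios were added after their values were seen. Positions and exon lengths are from GENCODE M21, promoters from RefSeq (GRCm38.p6). The marked and unmarked library of a replicate share a specimen number in the labels, which pairs them. Residuals of libraries of 1 specimen correlated with a median r of 0.0556 (-0.0109 to 0.115, 6 pairs).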

Additional observations from a re-analysis of the deposited data

How the results depend on the processing

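No alternative reversed the sign of Erlec1 (26 alternatives), and with day 60 marking or the change of marking between days 0 of the 38 genes were called in each alternative. With the specimen as a fixed replicate block, which pairs the marked and unmarked libraries, 1 gene was called over both days (Erlec1, -0.49, adjusted p 0.0429) and 0 within each day and for the change between days. Each specimen belongs to 1 day, so for comparisons between days the fixed block was the replicate number, which joins different specimens, and 0 were called. With the specimen as a random effect the same calls were made in all 8 comparisons, so no block changed a call. For marking over both days, where 1 gene was called, TMM scaling called 2, a filter at a mean of 5 CPM 2, DESeq2 4, limma-voom 3, and the fit without both day 60 marked library 1 and day 270 marked library 2 called 2; leaving out single libraries gave 0 to 2 (0 without day 60 unmarked library 1). edgeR called 1, Sel1l in place of Erlec1. At day 270, where 0 were called, DESeq2 called 2, and leaving out single libraries gave 0 to 1 (1 without day 270 marked library 1). Between days DESeq2 called 1 in marked cells and 2 with both populations averaged. For day 270 marked minus day 60 unmarked, where 0 were called, TMM scaling called 2, edgeR 1, DESeq2 3, limma-voom 1, rescaling without Jchain and ribosomal features 2, leaving out the 2 marked libraries 1, and single libraries 0 to 1. The share of all genes called in each alternative is not given here, so these counts do not show an excess among the 38. The cause of these changes was not tested. Without day 270 marked library 2, the median of the 38 genes between days in marked cells moved from -0.02 to 0.23. With 3 libraries a group, 37% of simulated 2-fold and 79% of simulated 4-fold changes were recovered at day 60. The simulation covered 12704 genes, and among all genes differences of these sizes, as well as smaller ones, can therefore be missed. The simulated shares were not worked out for the 38 genes alone. At day 60 the intervals of 36 of the 38 lay within a 2-fold change, with Fkbp14 and Hsp90b1 outside. Smaller differences in the 38 genes can still be missed.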
